A study of Mus musculus with 46 samples.

Results

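The AP-1 transcription factor genes described here are Fos, Fosb, Fosl1, Fosl2, Jun, Junb, Jund, Atf3 and Maff, in the liver of mice that had sunscreen on the skin. They were chosen as the probe sets whose platform gene symbol is exactly 1 of these 9 names. Each gene had 1 such probe set, so the description covers 9 genes of the 19938 genes that had a probe set with a single symbol. All 9 kept their symbol when their Entrez identifiers were looked up in a mouse gene table.

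The livers came from 46 SKH:QS mice, which are a hairless stock, and the RNA of each mouse was measured on its own Affymetrix whole-transcript array. A gestation experiment used mice at about 17 days of gestation and a separate experiment used virgin mice. In each, sunscreen containing 68ZnO nanoparticles (nano ZnO), sunscreen containing 68ZnO microparticles (micro ZnO) or sunscreen with no particles (formulation) was applied to the skin 6 times over 4 days, and a further arm was untreated. The gestation arms held 6 nano ZnO, 5 micro ZnO, 6 formulation and 5 untreated mice, and each virgin arm held 6. All mice were housed singly under 14 h of light and 10 h of dark and were given an injection of Xylase and ketamine before cervical dislocation on day 5. The labels describe neck collars against licking for the mice in general, with no separate word on the untreated arms. No genotype differs between the groups, and ages are not in the labels used here.

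AP-1 is a dimer of proteins that share a basic leucine zipper, the coil through which they pair and grip DNA. Jun proteins pair with each other or with Fos proteins, whereas Fos proteins need a Jun partner. Atf3 is a stress-induced factor that joins Jun proteins or forms its own dimers, and the small Maf protein Maff lacks a transactivation domain and serves as a partner for larger factors. Fos, Jun, Junb and Atf3 are immediate early genes, whose transcripts appear within minutes of a growth, stress or cytokine signal and are short-lived. In liver they are known for their induction after partial hepatectomy, injury and acute-phase signals.

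The promoter sequences of the 4 members with the largest changes are given because several of the elements through which immediate early genes are known to be induced lie close to their starts. RefSeq promoter windows of the build GRCm38.p6, running from 250 bases before to 50 bases after the start, were found for 8 of the 9 genes, with 3 windows for Maff and so 10 windows in all. Fosl1 had none. Capitals mark the cAMP response element half-site TGACG on either strand, the TGACATCA form of the AP-1 element known from Jun, and the TATAAA box. The windows, each written 5′ to 3′ on the strand of its gene, are chr12:85473640-85473939 (plus strand) for Fos, chr4:95052173-95052472 (minus strand) for Jun, chr8:84978699-84978998 (minus strand) for Junb and chr1:191183284-191183583 (minus strand) for Atf3.
Fos: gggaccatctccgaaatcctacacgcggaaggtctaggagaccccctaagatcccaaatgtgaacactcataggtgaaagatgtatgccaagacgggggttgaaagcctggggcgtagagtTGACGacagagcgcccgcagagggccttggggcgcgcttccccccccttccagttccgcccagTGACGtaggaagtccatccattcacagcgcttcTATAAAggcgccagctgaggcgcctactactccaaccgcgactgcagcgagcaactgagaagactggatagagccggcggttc
Jun: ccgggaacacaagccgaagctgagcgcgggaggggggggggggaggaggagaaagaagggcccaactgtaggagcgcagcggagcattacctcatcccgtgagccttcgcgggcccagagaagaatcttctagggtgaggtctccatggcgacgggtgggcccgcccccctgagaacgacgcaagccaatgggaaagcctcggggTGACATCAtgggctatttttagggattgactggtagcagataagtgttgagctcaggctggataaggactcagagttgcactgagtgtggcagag
Junb: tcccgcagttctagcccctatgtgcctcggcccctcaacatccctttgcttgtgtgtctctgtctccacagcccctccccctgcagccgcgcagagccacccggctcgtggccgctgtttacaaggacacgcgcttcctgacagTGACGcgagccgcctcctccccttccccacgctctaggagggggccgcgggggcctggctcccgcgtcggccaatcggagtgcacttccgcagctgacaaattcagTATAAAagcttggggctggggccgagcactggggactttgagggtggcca
Atf3: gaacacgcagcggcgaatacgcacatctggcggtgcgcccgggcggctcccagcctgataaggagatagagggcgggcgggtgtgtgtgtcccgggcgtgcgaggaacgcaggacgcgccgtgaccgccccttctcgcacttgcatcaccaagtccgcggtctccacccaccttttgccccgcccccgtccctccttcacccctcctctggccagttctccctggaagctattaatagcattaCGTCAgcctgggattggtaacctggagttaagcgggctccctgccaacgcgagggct

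Each motif was looked for on both strands, and a half-site was also counted where it lay inside a full element. The half-site TGACG stood in 6 of the 10 windows, those of 5 genes, against 20.8% of all 32851 promoter windows. Fos held it at bases -129 to -125 and -66 to -62 from the start, Junb at -106 to -102, Fosb at -60 to -56 and Atf3 at -7 to -3 on the opposite strand. The full element TGACGTCA was found in 1 of the 10 windows, that of Maff at -29 to -22, against 1.8% of all windows. TGACATCA was found at -45 to -38 in Jun and in another Maff window, against 3.6% of all windows. The plain AP-1 element TGANTCA was in none of the 10 windows, against 7.8% of all windows, and Fosl2 and Jund held no match to any of these motifs. TATAAA was found in Fos at -33 to -28 and in Junb at 1 to 6, against 13.6% of all windows. These are matches of letters and no binding was measured.

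All levels are log2 intensities after RMA normalization. The medians of the arrays were 3.98 to 4.12 in the gestation experiment and 4.66 to 4.90 in the virgin experiment, so levels were not tested between experiments. Two-sided tests with limma used the 4 arms of an experiment, p values were adjusted with the Benjamini-Hochberg method over 23410 probe sets with a symbol, and a gene counts as called where its adjusted p was below 0.05. Changes are on the log2 scale and carry their standard error (SE) after ±, levels carry the SD, and brackets hold 95% intervals. The p values measure the spread between mice of these experiments, and their precision is limited by how many arrays there were. On the first principal component of the gestation arrays (21.8% of the variance), micro ZnO replicates 3 and 4 lay apart at 47.1 and 31.2, against -19.5 to 12.5 for the other 20 arrays, and the comparisons with micro ZnO in gestation are given with and without them. Liver identity was clear, since the 7 measured hepatocyte markers averaged 12.2 log2 units in every gestation arm and 12.6 to 12.7 in the virgin arms.

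On the RMA scale, virgin formulation mice had the highest mean of the 4 virgin arms for 8 of the 9 genes, and virgin untreated mice had the lowest for all 9. The exception was Maff, which averaged 4.80 ± 0.13 in nano ZnO and 4.72 ± 0.23 in formulation mice (SD, n = 6 each), a pair not told apart by its spread. Nano ZnO came next and micro ZnO after it for Fos, Fosb, Fosl2, Jun, Junb, Jund and Atf3, although no member was called between nano ZnO and micro ZnO. The array medians fell in the same order, averaging 4.83 in formulation, 4.80 in nano ZnO, 4.78 in micro ZnO and 4.71 in untreated virgin arrays. With array medians taken off, Jund was lowest in micro ZnO mice (2.99, against 3.03 in untreated mice). Fosl1 was then highest in micro ZnO mice (-0.43, against -0.48 in formulation mice). In the gestation experiment the order was not shared: nano ZnO mice had the highest mean for Fos, Fosl1, Jun, Jund, Atf3 and Maff, formulation mice for Fosb, and micro ZnO mice for Fosl2 and Junb. The plot of levels by mouse shows all of them.

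**Figure D1:**
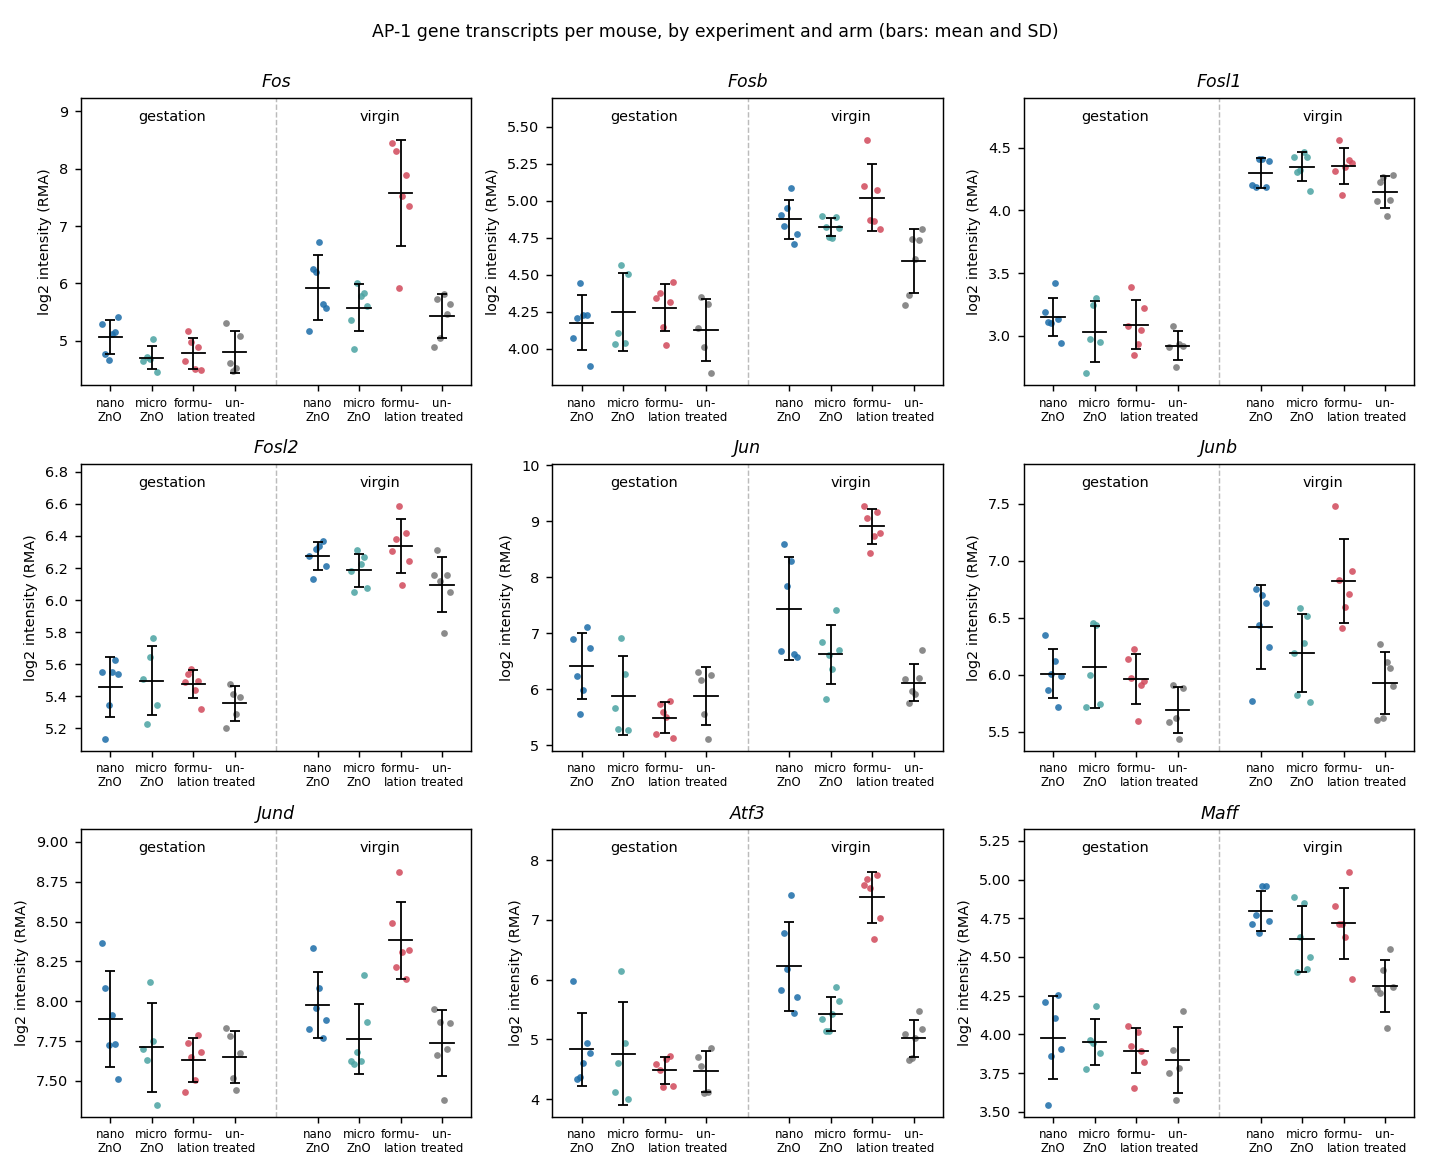
Log2 intensity of each AP-1 gene (vertical axis, RMA values, a separate scale for each gene) in every mouse, with gestation arms left of the dashed line and virgin arms right of it, and with bars for the mean and SD of 5 or 6 mice. The 6 virgin formulation values of Jun, 8.44 to 9.27, and of Atf3, 6.68 to 7.75, lie above all 6 virgin untreated values, whereas the gestation formulation values lie among the untreated ones.

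In the virgin experiment, mice with the particle-free formulation differed from untreated mice in all 9 members: all 9 genes rose, 3 of them more than 4-fold. Background was high in this comparison, since 26.5% of all probe sets were called and 11.5% were called higher. The groups did not overlap for 6 of the genes, Fos, Fosb, Jun, Junb, Jund and Atf3. Every formulation array was above every untreated one for 2.81% of all probe sets. Array medians averaged 4.83 in virgin formulation and 4.71 in virgin untreated arrays. With the array median taken from each value, Fosb (lowest formulation -0.04, highest untreated 0.09) and Jund (3.24 and 3.29) overlapped. On that scale Fosl1 averaged -0.48 in formulation and -0.57 in untreated mice, and Fosl2 1.51 and 1.38. These centred values were not tested. The median change of the 9 genes was 0.64, against 0.03 over all probe sets tested. In bulk liver, a changed number of cells of a type and a changed amount of RNA in each cell cannot be told apart.

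Jun, the founding member with strong transactivation, had a lowest, median and highest value of 8.44, 8.92 and 9.27 in formulation mice, against 5.75, 6.07 and 6.70 in untreated mice. The lowest formulation mouse was thus above the highest untreated mouse. The change of 2.79 ± 0.29 was 6.92-fold [4.57 to 10.5] (adjusted p = 9.91e-07) and ranked 4th from the top of 23410 probe sets. Atf3 had 6.68, 7.56 and 7.75 in formulation mice, against 4.65, 5.06 and 5.48 in untreated mice. Its groups were likewise apart, and the change of 2.36 ± 0.24, or 5.13-fold, ranked 6th (adjusted p = 8.63e-07).

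Fos, the partner of Jun in the classical AP-1 dimer, had 5.91, 7.71 and 8.45 in formulation mice, against 4.89, 5.55 and 5.82 in untreated mice. Formulation replicate 3, at 5.91, lay just above the untreated range while the other 5 mice lay between 7.36 and 8.45. Fos rose by 2.14 ± 0.31, or 4.42-fold, and ranked 8th (adjusted p = 5.87e-05). The mouse with the lowest Fos had a Jun value of 8.44, also the lowest of its arm, but an Atf3 value of 7.54 near the median.

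Junb and Jund, the Jun proteins with weaker transactivation, moved less. Junb had 6.41, 6.77 and 7.48 in formulation mice, against 5.60, 5.98 and 6.27 in untreated mice, a rise of 0.90 ± 0.18 (adjusted p = 0.000896). Jund, which is known for steady expression in many tissues, had 8.14, 8.31 and 8.81 in formulation mice, against 7.38, 7.78 and 7.95 in untreated mice, a rise of 0.64 ± 0.12 (adjusted p = 0.000547). On the RMA scale each formulation mouse was above each untreated mouse for both genes, but Jund overlapped once array medians were taken off.

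Fosb, a Fos protein known from neurons, rose by 0.43 ± 0.10 (adjusted p = 0.00235). On the RMA scale its groups barely stood apart, with a lowest formulation value of 4.811 and a highest untreated value of 4.8075. They overlapped once array medians were taken off. Maff rose by 0.41 ± 0.10 with 5 of 6 formulation mice above the untreated range (adjusted p = 0.00634). Fosl2 and Fosl1, the Fos proteins that lack the transactivation domain of Fos, had the smallest rises, 0.24 ± 0.08 (adjusted p = 0.0307) and 0.21 ± 0.08 (adjusted p = 0.046). For Fosl2 3 of 6 formulation mice and for Fosl1 5 of 6 lay above the untreated range. The calls of Fosl1, Fosl2 and Maff depended on the fit. Fosl1 stayed called in 4 and Fosl2 in 7 of the 12 fits that each left out 1 mouse, with Fosl1 at 0.17 to 0.26 and Fosl2 at 0.18 to 0.29. Maff stayed called in all 12. After a further quantile normalization Fosl1 stood at 0.09 (adjusted p = 0.425) and Maff at 0.29 (adjusted p = 0.0525), and neither was called. A clock score was computed for each array as the mean of 7 clock output genes minus that of 2 clock genes of opposite phase, and averaged 0.13 in virgin formulation and -1.01 in virgin untreated arrays. With this score added to the fit 6 of the 9 were called, and Fosl1 at 0.19 (adjusted p = 0.190), Fosl2 at 0.24 (adjusted p = 0.117) and Maff at 0.29 (adjusted p = 0.125) were not. With the interquartile range of the arrays added to the fit, 3 of the 9 were called in place of 9. They were Jun at 2.09 ± 0.37 (adjusted p = 0.00741), Jund at 0.76 ± 0.16 (adjusted p = 0.025) and Atf3 at 1.82 ± 0.31 (adjusted p = 0.00636), while Fos stood at 1.35 ± 0.38 (adjusted p = 0.0991). That range averaged 2.83 in virgin formulation arrays (highest 2.89) and 2.97 in virgin untreated arrays (lowest 2.90), without overlap of the arms. Range and sunscreen arm cannot be told apart there, and the part of the range in the results was not tested.

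**Figure D2:**
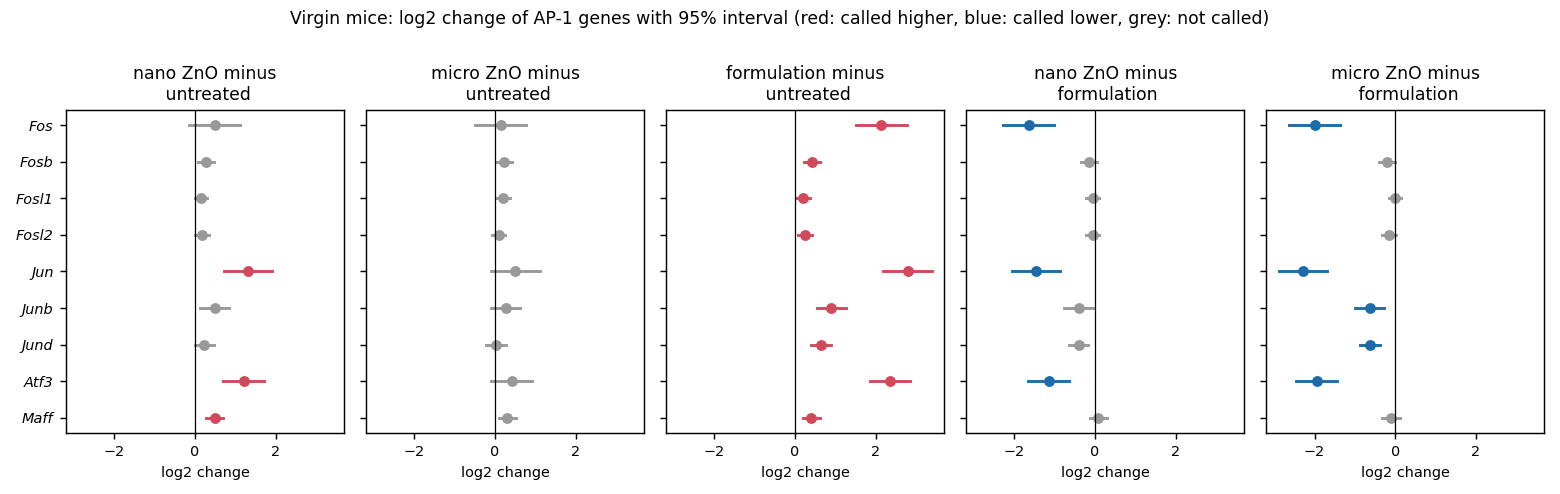
Log2 change (horizontal axis) of each AP-1 gene in 5 comparisons of virgin arms, with points for the estimate and lines for the 95% interval, in red where called higher, in blue where called lower and in grey where not called. All 9 genes are red for formulation minus untreated and 0 for micro ZnO minus untreated, and Fos, Jun and Atf3 are blue in both comparisons of a particle arm with formulation.

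Nano ZnO mice of the virgin experiment had 3 members above untreated mice, Jun, Atf3 and Maff, where 11.9% of all probe sets were called and 4.77% were called higher. Jun values were 6.67, 8.60, 7.85, 8.29, 6.63 and 6.57 in nano ZnO replicates 1 to 6, against 5.75 to 6.70 in untreated mice with a median of 6.07. Replicates 2, 3 and 4 lay above the untreated range and the other 3 lay inside it, so the rise of 1.32 ± 0.29 (2.49-fold, adjusted p = 0.00494) was uneven. With the interquartile range of the arrays added to the fit, Jun was no longer called (0.97 ± 0.29, adjusted p = 0.0597), while Atf3 (0.94) and Maff (0.46) were. Atf3 values were 5.83, 6.78, 6.18, 7.42, 5.44 and 5.70 in the same nano ZnO mice, against 4.65 to 5.48 in untreated mice with a median of 5.06. Replicates 2, 3 and 4 were again the highest, 5 of 6 mice were above the untreated range, and the rise was 1.21 ± 0.24 (2.31-fold, adjusted p = 0.00272). Maff had 4.65, 4.75 and 4.96 as lowest, median and highest in nano ZnO mice, against 4.04, 4.30 and 4.55 in untreated mice. The rise was 0.49 ± 0.10 without overlap (adjusted p = 0.00407), where 1.74% of all probe sets had every nano ZnO array above every untreated one. With array medians taken off, the lowest nano ZnO value of Maff was -0.21 and the highest untreated value -0.17, so the groups overlapped.

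Fos was not called in nano ZnO mice, at 0.49 [-0.14 to 1.13] (adjusted p = 0.30), with replicates 2, 3 and 4 above the untreated range at 6.25, 6.20 and 6.72 and replicate 1 at 5.16. Fosb at 0.28 (adjusted p = 0.0541) and Junb at 0.49 (adjusted p = 0.0644) missed the threshold, and Fosb was called in 3 and Junb in 2 of the 12 fits that each left out 1 mouse. With the clock score added to the fit none of the 9 was called, with Jun at 1.41 ± 0.49 (adjusted p = 0.323). Atf3 had 1.12 ± 0.41 (adjusted p = 0.351) and Maff 0.26 ± 0.16 (adjusted p = 0.648) in that fit. The score averaged 1.25 in nano ZnO and -1.01 in untreated virgin arrays without overlap of the arms. Clock phase and sunscreen arm cannot be told apart there.

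Micro ZnO mice of the virgin experiment had 0 of 9 members called against untreated mice, where 4.43% of all probe sets were called, and 3 members had an unadjusted p under 0.05, near the 21.3% of all probe sets that did. Jun had 5.82, 6.66 and 7.41 as lowest, median and highest in micro ZnO mice, against 5.75, 6.07 and 6.70 in untreated mice. The ranges overlapped, and the change was 0.51 [-0.09 to 1.11] (adjusted p = 0.327). Atf3 was at 0.41 [-0.09 to 0.91] and Fos at 0.15 [-0.49 to 0.78]. The smallest adjusted p of the members was 0.0916, for Maff at 0.30 [0.09 to 0.52]. On the RMA scale the 9 estimates were all above 0, as were 53.4% of all probe sets tested. Their median was 0.23, against 0.01 over all probe sets tested. Array medians averaged 4.78 in micro ZnO and 4.71 in untreated arrays. With these taken off, Jund averaged 2.99 in micro ZnO and 3.03 in untreated mice. Each of the 3 comparisons above uses the same 6 untreated mice.

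Markers of other liver cells moved in the same virgin arms. Of 11 neutrophil markers, 6 were called higher in formulation mice, 4 in nano ZnO mice and 0 in micro ZnO mice, each against untreated mice. Over all probe sets 11.5%, 4.77% and 1.63% were called higher in that order. The marker mean was 4.37 to 5.59 in nano ZnO, 4.00 to 4.47 in micro ZnO, 4.31 to 5.07 in formulation and 4.15 to 4.25 in untreated mice. The mouse with the highest neutrophil mean of each sunscreen arm is described next, and 1 mouse per arm cannot show a relation. In nano ZnO it was replicate 1 at 5.59, with the lowest Fos of its arm, 5.16. In micro ZnO it was replicate 3 at 4.47, with the highest Fos, 6.01, and the highest Junb, 6.59. In formulation it was replicate 3 at 5.07, with the lowest Fos, 5.91, but the highest Jund, 8.81, and Fosl2, 6.59. Formulation replicate 1, next at 4.88, had the highest Fos, Jun and Junb at 8.45, 9.27 and 7.48. Of 9 endothelial markers, 5 were called lower in each of the nano ZnO, micro ZnO and formulation arms. Over all probe sets 7.18%, 2.80% and 15.0% were called lower in that order. Of 8 measured Kupffer cell and macrophage markers, 0 were called higher and 1 lower in formulation mice. The part of these cells in the AP-1 values was not tested.

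The particle sunscreens were then set against the particle-free formulation, using the same 6 formulation mice as above. Micro ZnO mice were lower for 5 members, Fos, Jun, Junb, Jund and Atf3, where 6.83% of all probe sets were called and 1.69% were called lower. Jun had 5.82, 6.66 and 7.41 in micro ZnO mice, against 8.44, 8.92 and 9.27 in formulation mice. No micro ZnO mouse reached a formulation mouse, and Jun fell by 2.28 ± 0.29 on the log2 scale (adjusted p = 7.91e-05), second from the bottom of 23410 probe sets. Atf3 had 5.14, 5.38 and 5.87 in micro ZnO mice, against 6.68, 7.56 and 7.75 in formulation mice, and fell by 1.95 ± 0.24 without overlap (adjusted p = 7.91e-05). Non-overlap in this direction was found for 0.867% of all probe sets.

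Fos fell by 2.00 ± 0.31 in micro ZnO mice against formulation mice (adjusted p = 0.000567), with 5 of 6 micro ZnO mice, all but the one at 6.01, below the lowest formulation value of 5.91. Jund fell by 0.62 ± 0.12 (adjusted p = 0.00331) and Junb by 0.63 ± 0.18 (adjusted p = 0.0289). The Junb call held in 6 of the 12 fits that each left out 1 mouse, at -0.71 to -0.50, and was lost with the interquartile range of the arrays added to the fit (-0.46, adjusted p = 0.305). Fosb at -0.20, Fosl2 at -0.15, Maff at -0.10 and Fosl1 at 0.00 were not called.

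Nano ZnO mice were lower than formulation mice for 3 members, Fos, Jun and Atf3, where 3.25% of all probe sets were called and 0.722% were called lower. Fos had 5.16, 5.92 and 6.72 in nano ZnO mice, against 5.91, 7.71 and 8.45 in formulation mice. The groups overlapped through formulation replicate 3, and Fos fell by 1.65 ± 0.31 (adjusted p = 0.00545), the lowest estimate of all 23410 probe sets. Jun fell by 1.47 ± 0.29 (adjusted p = 0.00711), with 5 of 6 nano ZnO mice below every formulation mouse and replicate 2, at 8.60, inside the formulation range. Atf3 fell by 1.15 ± 0.24 (adjusted p = 0.00989), with 4 of 6 below it. Jund at -0.41 (adjusted p = 0.0539) and Junb at -0.40 (adjusted p = 0.224) were not called. With the interquartile range of the arrays added to the fit none of the 3 stayed called, at -1.25 for Fos (adjusted p = 0.0503), -1.12 for Jun (adjusted p = 0.066) and -0.88 for Atf3 (adjusted p = 0.0887). Of the 11 neutrophil and 9 endothelial markers, 0 were called in either comparison of a particle arm with formulation. In micro ZnO minus formulation, however, all 11 neutrophil markers were below 0, with a median of -0.31 and 6 at an unadjusted p under 0.05. In nano ZnO minus formulation 8 of 11 were above 0, with a median of 0.08 and 0 at an unadjusted p under 0.05. Their part in the AP-1 values was not tested.

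Nano ZnO and micro ZnO, which share the compound and differ in particle size, were compared directly in virgin mice. None of the 9 members was called, and limma called 0 of 23410 probe sets there, with 1106 at an unadjusted p under 0.05. Jun was at 0.81 [0.21 to 1.41] and Atf3 at 0.80 [0.30 to 1.30] in nano ZnO minus micro ZnO, with adjusted p = 0.993 for each. They ranked 10th and 12th from the top, and 3 of 6 nano ZnO mice, replicates 2, 3 and 4, lay above all micro ZnO mice for both genes. The intervals reach from small to more than 2-fold differences, so no likeness of the particle sizes is shown.

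In gestation mice none of the 9 members was called in any of the 6 comparisons of arms. Against untreated mice, 0.0214% of all probe sets were called for nano ZnO, 0.107% for micro ZnO and 0.0598% for formulation, and between the sunscreen arms 0 probe sets were called, so a count of 0 stands near the background. Unadjusted p was under 0.05 for 718 probe sets in nano ZnO minus formulation, 1639 in micro ZnO minus formulation and 1086 in nano ZnO minus micro ZnO.

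Jun had 5.56, 6.48 and 7.11 as lowest, median and highest in gestation nano ZnO mice and 5.12, 5.54 and 5.79 in gestation formulation mice. Its values were 5.66, 5.29, 6.91, 6.26 and 5.28 in micro ZnO mice and 6.31, 6.17, 5.56, 5.11 and 6.25 in untreated mice. All formulation mice lay inside the range of untreated mice, with a change of -0.39 [-0.98 to 0.20]. Nano ZnO minus formulation was 0.93 ± 0.27 [0.36 to 1.49], the second highest estimate of 23410 probe sets, with 5 of 6 nano ZnO mice above every formulation mouse, but its adjusted p was 1.00.

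Atf3 had 4.34, 4.69 and 5.97 in gestation nano ZnO mice and 4.21, 4.54 and 4.72 in gestation formulation mice. Micro ZnO mice had 4.12, 4.60, 6.14, 4.94 and 4.01, and untreated mice had 4.71, 4.55, 4.11, 4.12 and 4.86. Single mice stood out, nano ZnO replicate 1 at 5.97 and micro ZnO replicate 3 at 6.14, and formulation minus untreated was 0.01 [-0.59 to 0.61]. Fos spanned 4.66 to 5.42 in nano ZnO, 4.46 to 5.03 in micro ZnO, 4.50 to 5.16 in formulation and 4.47 to 5.32 in untreated mice, and all arms overlapped. Junb stood above untreated mice in each sunscreen arm by estimates that were not called, 0.32 in nano ZnO, 0.38 in micro ZnO and 0.28 in formulation mice against the same 5 untreated mice, with adjusted p = 0.457, 0.406 and 0.426 in that order.

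Micro ZnO replicates 3 and 4 of the gestation experiment were the highest mice of their arm for Jun, Atf3, Junb, Jund, Fosl1 and Fosl2. Their 11 neutrophil markers, which include the granule proteins S100a8 and S100a9, averaged 6.06 and 5.92, against 5.00 to 5.39 in the other 3 micro ZnO mice and 4.19 to 4.60 in untreated mice. Nano ZnO replicate 1, the highest for Atf3, had the highest neutrophil mean of all gestation mice at 6.42. The part of neutrophils in these values was not tested. Without the pair, micro ZnO minus untreated was -0.47 ± 0.28 for Jun against 0.00 ± 0.30 with it, -0.23 ± 0.26 for Atf3 against 0.29 ± 0.31 with it, and 0.13 ± 0.14 for Junb against 0.38 ± 0.15 with it. None was called either way. Nano ZnO minus micro ZnO was 1.01 ± 0.27 for Jun without the pair (adjusted p = 0.621), against 0.54 ± 0.29 with it, and 0.59 for Atf3 against 0.07 with it. Micro ZnO minus formulation was -0.08 for Jun without the pair, against 0.39 with it, and -0.24 for Atf3, against 0.28 with it. Of the 9 members 0 were called in these comparisons, with or without the pair.

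The responses of the experiments were compared as gestation minus virgin differences of sunscreen minus untreated, a measure that a shift of one whole experiment does not move. For the formulation, 3 members had a lower response in gestation, Fos, Jun and Atf3, where 0.145% of all probe sets were called and 0.0683% were called lower. Jun had a response of -0.39 ± 0.29 in gestation mice and 2.79 ± 0.29 in virgin mice. The difference of -3.18 ± 0.43 was the lowest of all 23410 probe sets (adjusted p = 7.46e-05). Atf3 had 0.01 ± 0.29 in gestation mice and 2.36 ± 0.24 in virgin mice, with a difference of -2.35 ± 0.40 (adjusted p = 0.00274). Fos had -0.02 ± 0.16 in gestation mice and 2.14 ± 0.31 in virgin mice, with a difference of -2.17 ± 0.38 (adjusted p = 0.00334). All 3 stayed called in each of the 23 fits that left out 1 mouse.

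Jund at -0.66 ± 0.18 (adjusted p = 0.14) and Junb at -0.62 ± 0.24 (adjusted p = 0.343) were not called in this difference, nor were Maff at -0.34, Fosb at -0.28, Fosl2 at -0.12 and Fosl1 at -0.04. With the interquartile range of the arrays added to the fit none of the 9 was called, with Jun at -2.69 ± 0.52 (adjusted p = 0.066), Atf3 at -2.12 ± 0.48 (adjusted p = 0.147) and Fos at -1.46 ± 0.43 (adjusted p = 0.499). For nano ZnO, the response differences of Jun at -0.78 [-1.65 to 0.09] and Atf3 at -0.85 [-1.65 to -0.04] were not called (adjusted p = 0.806 and 0.775, with 0.0427% of all probe sets called). For micro ZnO they were -0.50 [-1.40 to 0.39] and -0.12 [-0.94 to 0.70], with 0.0470% of all probe sets called, and -0.98 and -0.64 without gestation micro ZnO replicates 3 and 4, again not called. Gestation and experiment cannot be told apart, because each state was studied in an experiment of its own.

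**Figure D3:**
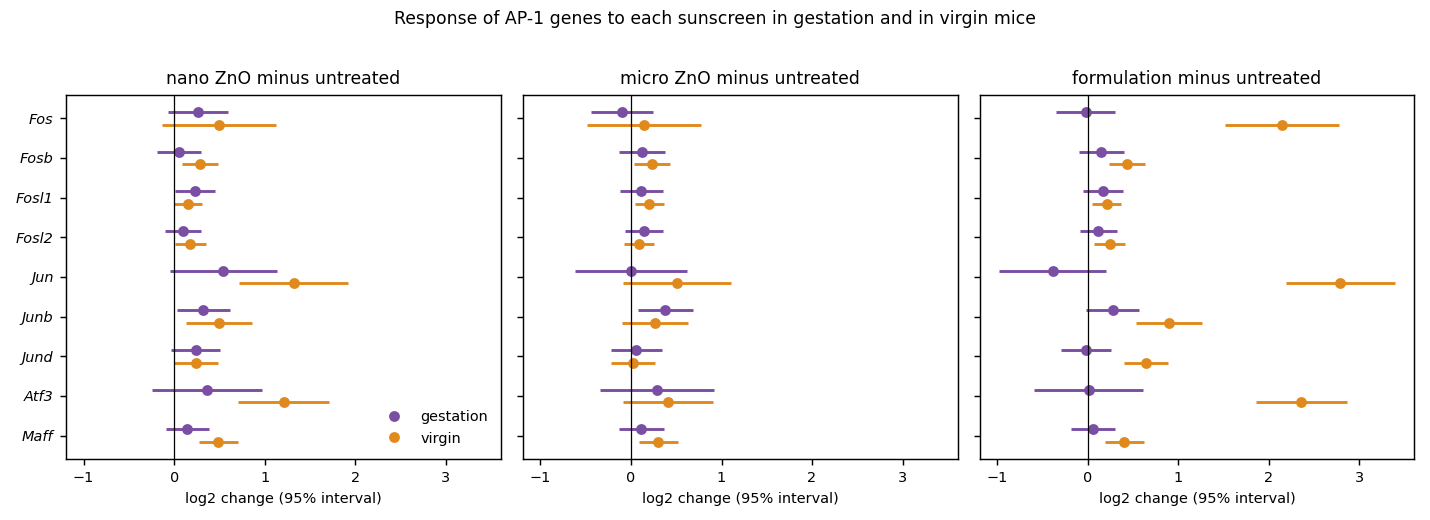
Log2 change against untreated mice (horizontal axis, points with 95% intervals) of each AP-1 gene for the 3 sunscreens, with gestation mice in purple above virgin mice in orange. For the formulation, Fos, Jun and Atf3 lie at 2.14, 2.79 and 2.36 in virgin mice, while their gestation intervals include 0.

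Mice of the same arm also differed among themselves, and some members did so together. Deviations from the arm mean were correlated for the 36 pairs of members in each experiment, with permutation tests (100000 resamples within arms, two-sided) adjusted over 72 values. Jun and Atf3 varied together in gestation mice (r = 0.779, rho = 0.791, adjusted permutation p = 0.00816 and 0.0108, 22 mice) and in virgin mice (r = 0.764, rho = 0.755, adjusted permutation p = 0.00816 and 0.0108, 24 mice). Without the 2 mice farthest from the median of Jun, r was 0.716 in gestation and 0.756 in virgin mice, and without micro ZnO replicates 3 and 4 it was 0.64 in gestation mice.

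Fos and Jun correlated at r = 0.625 and rho = 0.673 in gestation mice (adjusted permutation p = 0.0477 and 0.0229), with r = 0.601 without the farthest 2 mice and 0.712 without the micro ZnO pair. In virgin mice they had r = 0.606 and rho = 0.613 (adjusted permutation p = 0.0124 and 0.0503), with r = 0.612 without the farthest 2. Fos and Junb correlated in virgin mice (r = 0.736, rho = 0.754, adjusted permutation p = 0.00816 and 0.00576, and r = 0.708 without the farthest 2). In gestation mice Fos and Junb had r = 0.363 and rho = 0.361 (adjusted permutation p = 0.214 and 0.212). By Spearman's rho alone, Atf3 and Maff passed in gestation mice (0.653, adjusted permutation p = 0.0318, r = 0.541 with adjusted p = 0.0943) and Fosb and Jun in virgin mice (0.577, adjusted permutation p = 0.0318, r = 0.427 with adjusted p = 0.0943). The coefficient r was above 0 for 31 of 36 pairs in gestation mice and 29 of 36 in virgin mice. The lowest r was -0.435 in gestation mice, for Fos and Fosb (rho = -0.413, adjusted permutation p = 0.163 and 0.187), and -0.196 in virgin mice, for Fos and Jund.

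**Figure D4:**
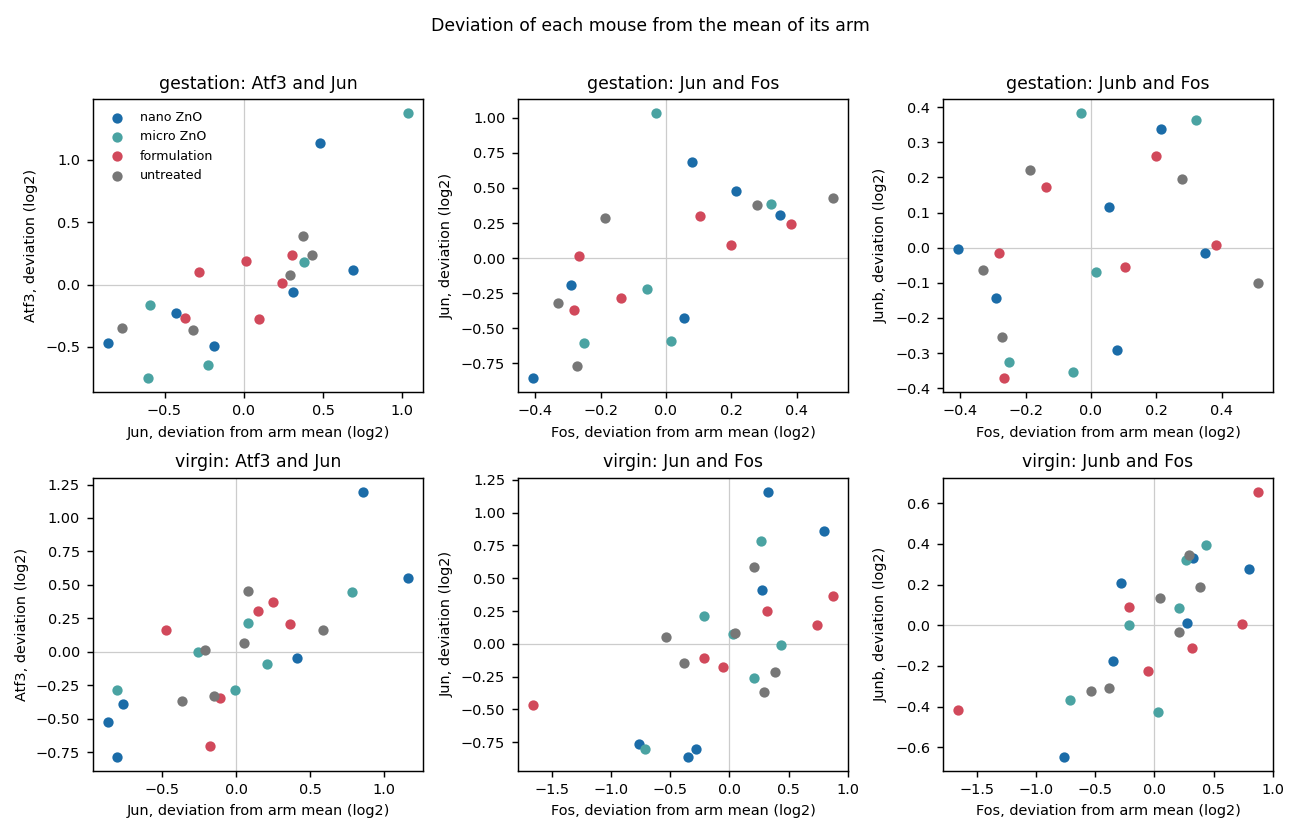
Deviation of each mouse from the mean of its arm (log2 units on both axes) for Jun with Atf3, Fos with Jun and Fos with Junb, gestation mice above and virgin mice below, coloured by arm. Mice with high Jun tend to have high Atf3 in both experiments, with r of 0.779 in gestation and 0.764 in virgin mice.

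Over whole experiments, arms included, the genes most like each member by Pearson's r were mostly other immediate early genes for Fos, Jun and Atf3 in virgin mice. These r are descriptions across 24 virgin or 22 gestation arrays, which share the differences between arms, and the gestation arrays include micro ZnO replicates 3 and 4. Jun was nearest to Btg2, an antiproliferative early gene (0.962), Nr4a1, an orphan nuclear receptor (0.939), and Ier2 (0.912), with Atf3 the nearest member (0.953). Fos was nearest to Ier2 (0.929), Zfp36, which encodes an mRNA-destabilising protein (0.903), and Btg2 (0.901). Atf3 was nearest to Btg2 (0.945), Nr4a1 (0.936) and Batf3, another AP-1 family gene (0.860). Junb was nearest to Zfp36 (0.873), Espnl (0.853) and Btg2 (0.845). Among the other members in virgin mice, Jund was nearest to Rgs1 (0.821), Mnt (0.814) and Olfr197 (0.81), and Maff to Tlnrd1 (0.851), Ccdc120 (0.82) and Pim3 (0.814). Fosb was nearest to Krtap9-3 (0.849), Ccdc92 (0.848) and Mir598 (0.845), Fosl1 to Gad1 (0.826), Sez6 (0.816) and Slc6a18 (0.816), and Fosl2 to Ssmem1 (0.804), Olfr808 (0.804) and Cebpb (0.785).

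In gestation mice Jun was again nearest to Btg2 (0.789), followed by Cldn14 (0.741) and Vcpip1 (0.739), whereas Fos was nearest to AW551984 (0.724), Folr1 (0.719) and Arrb1 (0.707). Junb was nearest to Crct1 (0.867), Cebpd, an acute-phase transcription factor gene (0.829), and Il1r2, a decoy receptor for interleukin 1 (0.819). Atf3 in gestation mice was nearest to Mmp9, a neutrophil and macrophage protease (0.814), AW112010 (0.810) and Cxcl10, an interferon-induced chemokine (0.786). Jund was nearest to Patl1 (0.833), Mir3068 (0.759) and Tnfrsf12a (0.757), and Maff to 4933402N03Rik (0.849), Snap91 (0.792) and Cilp2 (0.779). Fosb was nearest to Fcnaos (0.74), Ppp4r3c-ps (0.689) and Ropn1 (0.687), Fosl1 to Klf16 (0.822), Actn3 (0.802) and Sez6 (0.797), and Fosl2 to Rras (0.813), Kcne3 (0.798) and B9d1 (0.781).

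Among other AP-1 and small Maf genes, 12 of 13 listed were measured. In virgin formulation against untreated mice 6 were called higher and 1 lower, with a median of 0.28, against 11.5% and 15.0% of all probe sets. Batf3 was at 0.32, Jdp2, a repressor that binds AP-1 sites, at 0.39 and Mafa at 0.38, while Atf2, named after its value was seen as the single lower gene, was at -0.27. In virgin nano ZnO mice 5 were called higher and in virgin micro ZnO mice 0, against 4.77% and 1.63% of all probe sets. Of 20 measured genes upstream of AP-1, kinases and the factors that switch on Fos, 1 was called higher and 5 lower in virgin formulation mice, with a median of -0.06. Over all probe sets the share called was 26.5%, with 15.0% lower, so 6 of 20 is near the background. Elk1, a factor that binds the Fos promoter with Srf, was at 0.35, and the kinase genes Rps6ka3 and Mapk9, which encode RSK2 and JNK2, were at -0.47 and -0.33. In virgin nano ZnO mice 2 upstream genes were called higher and 0 lower, against 4.77% and 7.18% of all probe sets. In virgin micro ZnO mice 0 and 1 were, against 1.63% and 2.80%. The phosphorylation through which these kinases act was not measured.

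Of 18 genes that feed back on MAP kinases, 7 were called higher and 0 lower in virgin formulation mice, with a median of 0.18. Among the 23410 probe sets tested, the corresponding shares were 11.5% and 15.0%, and the median was 0.03. Dusp1, a phosphatase for MAP kinases, was at 1.94 ± 0.30, and the stress genes Gadd45g, Gadd45b and Gadd45a were at 1.78 ± 0.26, 1.42 ± 0.28 and 1.00 ± 0.23. In virgin nano ZnO mice Dusp1 was at 1.76 and Gadd45g at 1.43, the 2 called, against 4.77% of all probe sets called higher. In virgin micro ZnO mice 1 was called, Gadd45g at 0.93, against 1.63% called higher. Against formulation, virgin micro ZnO mice had 3 called lower, with Dusp1 at -1.22, where 1.69% of all probe sets were called lower. The formulation response of Dusp1 was also lower in gestation than in virgin mice, by -2.59 ± 0.58 (adjusted p = 0.039).

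Of 20 measured immediate early genes outside AP-1, 11 were called higher and 0 lower in virgin formulation mice, with a median of 0.27. The shares over all probe sets were 11.5% higher and 15.0% lower, with a median of 0.03. Btg2 was at 2.58, Zfp36 at 1.61 and Csrnp1 at 0.69. In virgin nano ZnO mice 3 were called higher and 1 lower, against 4.77% and 7.18% of all probe sets. In virgin micro ZnO mice 0 and 1 were, against 1.63% and 2.80%. Against formulation, 7 were called lower in virgin micro ZnO mice and 4 in virgin nano ZnO mice, where 1.69% and 0.722% of all probe sets were. In gestation 0 were called in any sunscreen arm against untreated, where 0.0214% to 0.107% of all probe sets were called. The formulation response of 5 was lower in gestation than in virgin mice, with Btg2 at -2.67, against 0.0683% of all probe sets.

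Of 24 measured genes known as AP-1 targets, 6 were called higher and 1 lower in virgin formulation mice, with a median of 0.10 against 0.03 over all probe sets. These 7 of 24 called genes stand near the 26.5% called over all probe sets. Cxcl1, a neutrophil chemokine, was at 1.26, Vegfa at 0.36 and Lgals3 at 0.29. In virgin nano ZnO mice 2 were called higher and 1 lower, against 4.77% and 7.18% of all probe sets. In virgin micro ZnO mice 1 and 1 were, against 1.63% and 2.80%. In the gestation arms 0 were called against untreated mice, where 0.0214% to 0.107% of all probe sets were called. In gestation micro ZnO mice, however, 12 of 24 had an unadjusted limma p under 0.05, against 9.08% of all probe sets. Their median was 0.22, and the list mean spanned 4.42 to 5.24 in that arm, which includes replicates 3 and 4. In gestation formulation mice 2 of 24 had such a p, against 12.3% of all probe sets. Of 9 measured heat shock genes, 0 were called higher and 1 lower in virgin formulation mice, against 11.5% and 15.0% of all probe sets.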

How the data were processed

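The values deposited by the authors are on the log2 scale after RMA; the method comes from the submitters' processing notes, without a version. Liver RNA of 46 mice was measured on 46 arrays. The medians of the arrays differ between the experiments, so each experiment was fitted apart, with 1 joint model of 8 groups for the response differences. Of 35512 probe sets, 21789 had 1 gene symbol in the platform annotation, 1621 several and 12102 none, and the 23410 with a symbol were tested. limma 3.58.1 in R 4.3.3 (lmFit and eBayes, two-sided, Benjamini-Hochberg adjustment over the 23410 probe sets) gave changes, standard errors and 95% intervals. Correlations, motif searches and plots used Python 3.11.15 with numpy 2.4.6, pandas 2.3.3, scipy 1.17.1 and matplotlib 3.10.9. The fit was tested on simulated data. No 2 arrays held identical values. The mean signal of Fosl1 and Maff lay above only 28.1% and 39.1% of the tested probe sets.

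The 9 members and all gene lists were chosen with earlier results of these data known. All members are named, and of each list at most 4 called genes per comparison, those with the smallest p. Likeness names the 3 genes with the highest Pearson r for a member in each experiment. Alternatives left out probe sets below the 40th percentile of mean signal, tested all probe sets or averaged the probe sets of a gene. Others used intensity-trend and robust moderation, array weights or a further quantile normalization, or fitted the compared groups alone. Further ones added the replicate number, interquartile range or clock score of each array, or required a 1.5-fold change. Array medians were taken off only to describe levels, and no test used such values. Arrays were also left out, each in turn or gestation micro ZnO replicates 3 and 4 together. Leaving out that pair in the correlations was chosen after seeing the data.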

Additional observations from a re-analysis of the deposited data

Results flagged for a closer look

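Atf3 in gestation nano ZnO replicate 1, at 5.97 log2 units, lay far above the other 5 mice of its arm. The gap to the next mouse was 0.628 of the range of the arm. It was the only such value among the 72 sets of member values examined, where chance gives about 1 in 20.

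The response to the formulation differed between the gestation and virgin experiments for 3 members, by a test of the difference itself in limma's joint model. The gestation minus virgin difference was -3.18 for Jun, -2.35 for Atf3 and -2.17 for Fos on the log2 scale. Gestation and experiment cannot be told apart here.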

How the results depend on the processing

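No called value changed its direction under any alternative, and 139 of 3345 recomputed member values changed sign between settings in which neither was called. With the interquartile range of the arrays added to the fit, the members called fell in number to 3 for virgin formulation minus untreated, 2 for virgin nano ZnO minus untreated (Jun lost), 4 for virgin micro ZnO minus formulation (Junb lost), 0 for virgin nano ZnO minus formulation and 0 for the gestation minus virgin response to formulation. With the clock score as a covariate, 0 were called for virgin nano ZnO minus untreated, 6 for virgin formulation minus untreated and 4 for virgin micro ZnO minus formulation (Junb lost). Requiring a 1.5-fold change left 5 for virgin formulation minus untreated, since Fosb, Fosl1, Fosl2 and Maff changed by less. The interquartile ranges of virgin formulation and virgin untreated arrays did not overlap, so range and arm cannot be told apart there. The cause of the changes under the covariates was not tested. When 1 mouse was left out in turn, 7 to 9 members were called for virgin formulation minus untreated, 3 to 4 for virgin nano ZnO minus untreated, 4 to 5 for virgin micro ZnO minus formulation, 3 to 4 for virgin nano ZnO minus formulation and 3 in each fit for the response to formulation. In the other 10 comparisons 0 were called in each fit. In virgin nano ZnO minus formulation, Atf3 had an adjusted p of 0.0574 when limma used the compared groups alone. For same-numbered replicates of different arms, the median correlation of deviations was -0.127 over 36 virgin pairs and 0.024 over 31 gestation pairs. For pairs of other numbers it was 0.04 in virgin and -0.008 in gestation mice. Of the same-numbered pairs, 1 virgin and 12 gestation pairs lay above 0.1, with highest values of 0.198 and 0.232. With the replicate block, Fosl1 in virgin formulation minus untreated (0.21, adjusted p = 0.0868) and Junb in virgin micro ZnO minus formulation (-0.63, adjusted p = 0.0552) were no longer called, so that 8 and 4 members were. The block changed no other call. Fosl1 and Maff were dim, which limits how small a change could be measured for them.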
